A study of Mus musculus with 6 samples.

Results

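MHC class II high microglia were examined in the CD45+ cells of mouse brains that carried human glioma xenografts. Cells were chosen by their own counts of unique molecular identifiers (UMIs, the molecules counted per gene and cell). A cell entered the set when it had over 200 and at most 2500 detected genes, under 5% of UMIs on mitochondrial genes, over 3% of UMIs on Cst3, C1qa, C1qb, C1qc, P2ry12 and Tmem119 together, at least 10 UMIs of Cd74, at least 1 of H2-Aa, and none of Ccr2 or Cd209a. Of 40411 barcodes, 38751 met the gene and mitochondrial limits, 37629 of these were microglial by the 6-gene share, and 357 met the whole rule. These 357 cells held 1428180 UMIs, and 1 UMI among them is worth 0.700 CPM (a count scaled to a library of 1e+06 UMIs). They are described against the 35724 microglial cells with at most 1 UMI of Cd74, called Cd74-low microglia below. Values of the genes that chose the cells are a description.

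All 6 mice were SCID females, a strain that lacks mature T and B cells, implanted at 8 weeks of age with 50000 U87 cells, a human glioma line. In 3 mice the line carried the pcDNA vector and the tumor-bearing hemisphere was taken after 6 weeks, and in 3 mice it expressed IL-33 and the hemisphere was taken after 3 weeks. CD45+ cells were sorted and captured on the 10x Chromium platform with 3′ v2 chemistry, and the 6 libraries were deposited as 1 matrix in which a barcode suffix from 1 to 6 marks the library. The suffixes held 9745192 to 24393841 UMIs over all barcodes, with medians of 1536 to 3503 UMIs per barcode. GEO's labels tie no suffix to a mouse, and groups were taken from these labels alone, so IL-33 and pcDNA were not compared here, the matrix was handled as 1 sample, no test was made, and every interval below covers counting error only.

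MHC class II molecules are pairs of alpha and beta chains that display peptides taken up from outside the cell to CD4+ T cells. The invariant chain, encoded by Cd74, fills the groove of a new class II molecule and escorts it to endosomes, where proteases trim it and the H2-DM molecule exchanges the remnant for a peptide. Resting microglia, the resident macrophages of the brain, carry little class II, and interferon-gamma is the textbook inducer, acting through the coactivator CIITA.

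The libraries were not independent of each other. Of the 40411 barcodes, 14722 (36.4%) had a sequence that also occurred with another suffix, and 490 sequences occurred with all 6. Barcodes with a shared sequence held a median of 929 UMIs against 3137 for the others. Among the class II high microglia, 69 of 357 (19.3%) had a shared barcode, from 30 distinct sequences. A further 64 microglial cells shared a sequence with a class II high cell, and 50 of them (78.1%) had at least 2 UMIs of Cd74, against 6.05% of the microglial cells whose barcode occurred with 1 suffix only. Copies of a barcode therefore tended to carry class II RNA together, and results are given for all 357 cells and for the 288 with an unshared barcode. The origin of the copies was not tested.

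Class II high cells were concentrated in 1 library. Suffix 1 held 245 of them, or 3.24% of its microglial cells (95% Clopper-Pearson interval 2.85 to 3.67). Suffix 2 held 52 (0.525%), suffix 3 held 9 (0.334%), suffix 4 held 13 (0.229%), suffix 5 held 19 (0.302%) and suffix 6 held 19 (0.346%). Without shared barcodes the counts for suffixes 1 to 6 were 225, 33, 6, 5, 6 and 13, and suffix 1 stood at 5.43% (4.76 to 6.16) against at most 0.520% elsewhere. Suffix 1 thus gave 68.6% of all class II high microglia and 78.1% of those with an unshared barcode, while it held 6801 of the 35724 Cd74-low microglia. Suffix 1 was not assigned to a group here, and the parts of 1 animal, of its treatment and of its library in this share were not tested. Suffix 1 also stood highest among deeper cells: of microglial cells with at least 2000 UMIs, 230 of 4093 in suffix 1 (5.62%) were class II high, against 0.149% to 0.768% in the other suffixes.

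**Figure D1:**
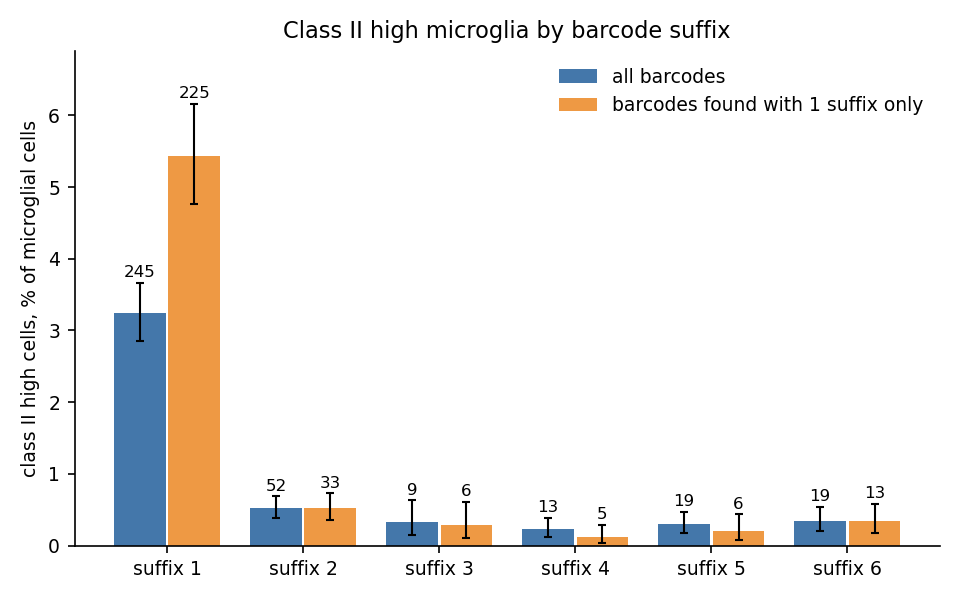
Class II high cells as a percentage of microglial cells (vertical axis) for each of the 6 barcode suffixes (horizontal axis), for all barcodes and for barcodes found with 1 suffix only; error bars are 95% Clopper-Pearson intervals and numbers are cells. Suffix 1 stands at 3.24% and 5.43%, and no other suffix exceeds 0.525%.

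Microglial markers that the rule did not use were present in nearly all of these cells. At least 1 UMI of Gpr34, Selplg, Olfml3, Siglech, Sall1 or Fcrls was found in 356 of 357 cells (99.7%) and in 99.3% of the Cd74-low microglia, and at least 3 UMIs in 339 of the 357. The 6 genes summed to 4968 CPM, against 6809 CPM in the Cd74-low microglia. P2ry12, a purinergic receptor, and Tmem119, a microglial membrane protein, belong to the rule and are given as a description: 341 of 357 cells (95.5%) had a UMI of either. A further 190 cells met the Cd74 and H2-Aa limits but not the microglial share. In these the 6 genes summed to 660 CPM, and 79 of the 190 had at least 3 UMIs of them. The 190 cells came mainly from suffixes 4, 5 and 6 (68, 34 and 77 cells), whereas suffix 1 held 3. A further 24 microglial cells passed the Cd74 and H2-Aa limits but carried Ccr2 or Cd209a.

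Small panels of markers of other blood and border cells were rarely detected, while whole marker lists differed by suffix. Ly6c2, Plac8, Chil3, Vcan or F13a1, which mark monocytes, were found in 8 of 357 cells (2.24%), against 1.19% of the Cd74-low microglia and 82.1% of the 190 class II high cells outside the microglial limit. Flt3, Zbtb46, Xcr1, Clec9a or Clec10a, which mark dendritic cells, were found in 6 cells (1.68%), and Mrc1, Cd163, Lyve1, Pf4, Cbr2 or Ms4a7, which mark border macrophages, in 12 cells (3.36%, against 0.932% of the Cd74-low microglia). Ms4a7 alone had 23 UMIs in 11 cells, at 16.1 CPM against 0.80 CPM expected, and none of them came from suffix 1. A T cell gene was seen in 1 cell and a B cell gene in 21 cells (5.88%, against 4.15%), in a strain that lacks mature T and B cells. Summed over whole lists, monocyte and NK markers exceeded the expected level and the others did not exceed it by 2-fold. The 15 monocyte markers reached 134 CPM against 62.2 expected (3 of them at 0 UMIs, with Ms4a4c the most abundant at 48.3 CPM), and the 20 dendritic cell markers reached 505 CPM against 582 expected (5 at 0 UMIs, with Fscn1 the most abundant at 219 CPM). The 18 border macrophage markers reached 274 CPM against 272 expected (5 at 0 UMIs, with Stab1 the most abundant at 120 CPM). For NK cells the 15 markers reached 223 CPM against 42.8 expected, of which 180 CPM was Ccl5, a chemokine that macrophages also express. The 12 granulocyte markers reached 218 CPM against 395 expected, the 8 plasmacytoid dendritic cell markers 159 against 183, the 15 B and T cell markers 342 against 342, and the 15 markers of non-immune brain cells 336 against 552. By suffix 1, suffix 2 and suffixes 3 to 6, monocyte markers summed to 70.9, 218 and 396 CPM against 55.3, 66.4 and 96.6 expected. Border macrophage markers summed to 223, 350 and 482 CPM against 263, 277 and 316 in the same order. The median microglial share of the class II high cells was lowest in suffixes 4 and 5, at 4.53% and 4.44%. Their Cd74-low microglia stood at 7.97% and 8.02%. In suffix 1 the medians were 8.60% and 8.81%. The part of other blood and border cells in the results below was not tested.

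The levels of all other genes were compared with those expected from Cd74-low microglia of the same suffixes. For each gene, the observed UMIs were divided by the UMIs expected if every class II high cell had carried the profile of its own suffix's Cd74-low microglia. Of 5503 genes that reached 20 CPM observed or expected, leaving out the genes of the rule, 112 (2.04%) were at least 2-fold higher and 50 (0.909%) at least 2-fold lower, while the median log2 ratio was -0.11. Without shared barcodes, 129 of 5414 genes (2.38%) were higher and 50 (0.924%) lower, and 108 of the higher and 34 of the lower genes were shared between both sets of cells. Because the cells were picked on Cd74 and H2-Aa, genes that vary with class II in microglia had to follow, and the ratios describe the chosen cells. A gene with under 20 CPM expected entered only by its level in the class II high cells and could not be called lower. Likewise, a gene with under 20 CPM observed could not be called higher. The counts and medians of the gene lists below include such genes.

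**Figure D2:**
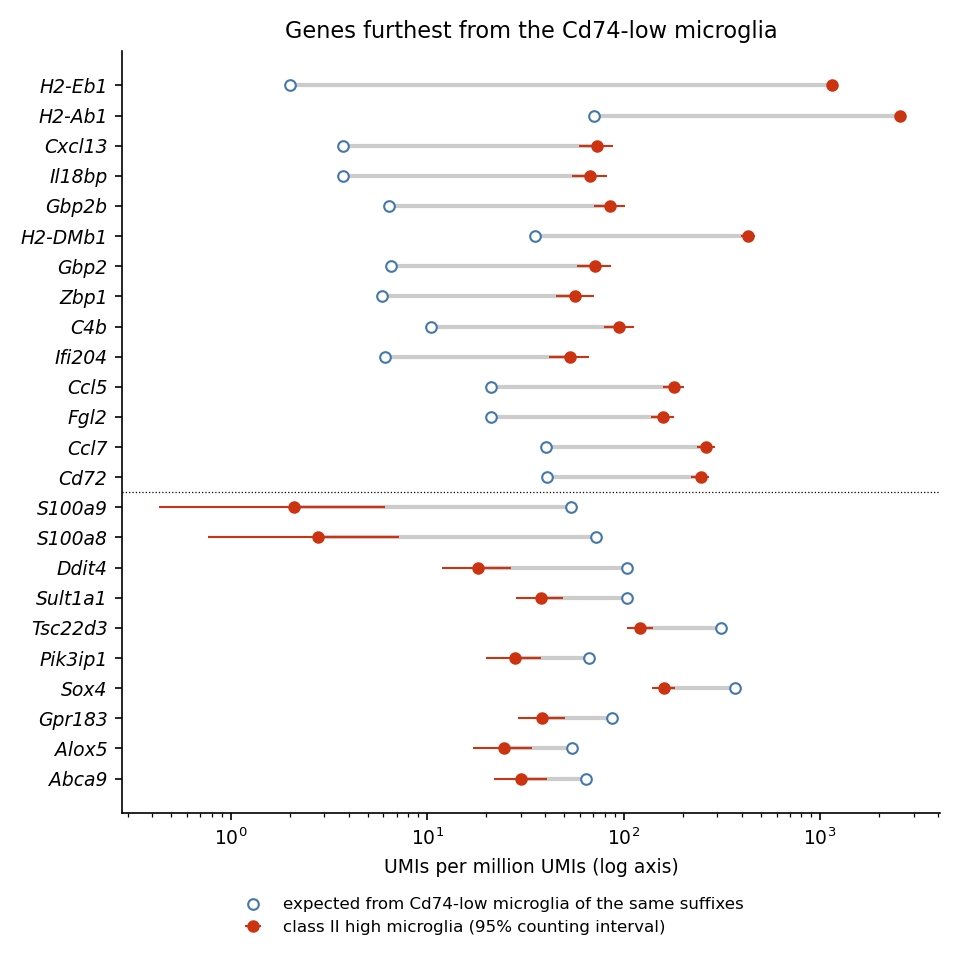
Level in class II high microglia (filled points, with 95% Poisson intervals) and level expected from Cd74-low microglia of the same suffixes (open points) on a log axis of CPM, for 14 of the genes with the highest ratios and, below the dotted line, the 10 with the lowest. H2-Eb1 spans the widest range, from 2.00 to 1146 CPM, and S100a9 stands lowest, at 2.10 CPM against 54.2 expected.

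The beta chains H2-Ab1 and H2-Eb1 were far above the Cd74-low microglia. H2-Ab1 (ENSMUSG00000073421, chr17:34257689-34269419 of GRCm38, plus strand), the beta chain that pairs with H2-Aa, stood at 2544.5 CPM (2462 to 2629) against 70.4 expected, a ratio of 36.1. Its level was 2592, 2859, 2254, 3896, 1444 and 1398 CPM in the class II high cells of suffixes 1 to 6, against 51.7 to 73.7 CPM in the Cd74-low microglia of the 6 suffixes, so the values did not overlap. H2-Eb1 (ENSMUSG00000060586, chr17:34305867-34316674, plus strand), the beta chain of the other class II molecule, was at 1146 CPM against 2.00 expected, a ratio of 573 (546 to 602). Its level was 1168, 1209, 623, 2106, 670 and 872 CPM in suffixes 1 to 6, again without overlap with the 0.242 to 2.26 CPM of the Cd74-low cells. H2-Ab1 was seen in 97.5% of the class II high cells and H2-Eb1 in 83.2%, while 13.3% and 0.375% of the Cd74-low microglia had a UMI. In 126 NK cells, which should lack class II, the shares were 7.94% and 3.97%. The median was 1753.5 UMIs per NK cell, against 3771 in the class II high and 2376.5 in the Cd74-low microglia. The NK cells came mainly from suffixes 4 and 6 (41 and 59 cells), with 6 from suffix 1, and the Cd74-low cells were chosen for little Cd74. The NK shares are therefore not a matched background for H2-Eb1 in the Cd74-low microglia. When each cell was thinned to 1000 UMIs (349 class II high, 27030 Cd74-low and 114 NK cells had as many), the shares with H2-Ab1 were 83.4%, 6.59% and 6.14% and those with H2-Eb1 57.3%, 0.185% and 2.63%. Among the chosen cells Cd74 itself ranged from 10 to 171 UMIs with a median of 26, and H2-Aa from 1 to 81 with a median of 5.

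Among the genes that load and regulate class II, the H2-DM chains were higher and the promoter-binding factors were not. H2-DMb1, the beta chain of the peptide exchanger H2-DM, was at 431 CPM against 35.5 (ratio 12.1), and its alpha chain H2-DMa at 879 against 266 (ratio 3.30). In suffix 1, suffix 2 and suffixes 3 to 6 the ratio of H2-DMb1 was 12.5, 11.1 and 9.96. That of H2-DMa was 3.48, 3.58 and 1.91, the last of them below 2-fold. H2-DMb2 was at 63.7 CPM against 15.2 (ratio 4.19) and H2-Oa, a chain of the H2-DM inhibitor, at 66.5 against 24.3 (ratio 2.74), whereas its partner H2-Ob stood at 22.4 against 21.0. The near-identical H2-DMb1 and H2-DMb2 can share reads, so their separate values are uncertain. Ciita, the class II coactivator, had only 31 UMIs in 23 cells. This gives 21.7 CPM against 0.31 expected, a ratio of 69.8. Of these UMIs, 26 lay in suffix 1 and none in suffixes 2 and 5. The factors that sit on class II promoters were near the reference: Rfx5 was at 16.1 CPM against 14.0, Rfxap at 23.1 against 23.6, Nfya at 22.4 against 21.9, Nfyb at 22.4 against 24.6 and Nfyc at 20.3 against 27.8. In all, 7 of the 12 measured genes of this list were higher and none lower, with a median log2 ratio of 1.59, and without shared barcodes the counts were the same and the median 1.74. H2-Eb2 had 1 UMI.

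Promoters of class II genes are shown for the X and Y boxes, the elements known from class II promoters, whose core letters as searched matched in some of these genes only. Of the 16 listed class II genes, 12 had a promoter entry, and H2-Ab1 was not among them. RefSeq promoters (GRCm38.p6), taken as the 250 bases before the start, were searched on both strands for the core of the X box, AACNGATG, which RFX binds, and for the core of the Y box, ATTGG, which NF-Y binds. Among 32851 promoters the X box core was found in 1.98% and the Y box core in 33.8%, and in only 5 promoters were the cores 28 to 32 bases apart, a spacing chosen after the class II promoters had been seen. Of those 5, 4 belong to H2-Eb1, H2-Eb2, H2-DMb1 and H2-DMb2 and the fifth to BC051142, which had 5 UMIs (3.50 CPM against 2.50). The windows below are 80 bases long on the gene's strand, 5′ to 3′, with the X and Y box cores in capitals, at chr17:34305753-34305832 (H2-Eb1), chr17:34325520-34325599 (H2-Eb2), chr17:34153075-34153154 (H2-DMb1) and chr17:34145104-34145183 (H2-DMb2), all on the plus strand, and at chr17:34287847-34287926 on the minus strand for H2-Aa, where only the Y box core matched, as also for H2-DMa, H2-Oa and H2-Ob.
H2-Eb1: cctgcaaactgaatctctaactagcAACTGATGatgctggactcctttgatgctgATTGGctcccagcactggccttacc
H2-Eb2: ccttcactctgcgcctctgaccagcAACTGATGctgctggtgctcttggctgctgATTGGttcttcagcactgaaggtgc
H2-DMb1: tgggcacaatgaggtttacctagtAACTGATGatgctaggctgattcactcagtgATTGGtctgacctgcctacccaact
H2-DMb2: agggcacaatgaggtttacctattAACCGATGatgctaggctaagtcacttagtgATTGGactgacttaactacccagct
H2-Aa: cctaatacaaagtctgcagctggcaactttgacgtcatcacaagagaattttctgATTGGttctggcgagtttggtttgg
The first base of the Y core follows that of the X core by 30 bases in H2-Eb1 and H2-Eb2 and by 31 in H2-DMb1 and H2-DMb2. A match is a description and not a shown binding site. An X box with letters other than AACNGATG would be missed, so no match does not mean no X box.

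Genes that supply peptides to class II were close to the reference. None of the 9 measured genes of this list passed 2-fold in either direction, and the median log2 ratio was 0.19. Ctss, the cathepsin that trims the invariant chain, stood at 11448 CPM against 9217 (ratio 1.24) and had a UMI in all 357 cells, while Lgmn, an endosomal protease, was at 6521 against 7322 (ratio 0.891). March1, a ligase that removes class II from the surface, was at 66.5 CPM against 74.2. H2-Ab1 and H2-Eb1 thus differed by more than 30-fold, and these proteases by less than 2-fold.

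The class I pathway, which presents peptides from inside the cell, was moderately higher. Of 22 measured genes, 6 were at least 2-fold higher, none lower and 21 above a ratio of 1, with a median log2 ratio of 0.88. Tap1, a subunit of the peptide transporter, was at 102 CPM against 29.1 (ratio 3.48), H2-Q7 at 162 against 51.2 (ratio 3.17) and H2-T23 at 447 against 146 (ratio 3.05). The classical chains H2-K1 (1339 CPM against 542, ratio 2.47) and H2-D1 (3862 against 1793, ratio 2.15) passed the limit, and B2m, their light chain, did not (4754 against 3055, ratio 1.56). Psmb9, a subunit of the immunoproteasome, was at 160 CPM against 65.9 (ratio 2.43). The class I genes have many near-identical copies, so reads of the H2-Q and H2-T genes may be split between them. H2-K1 kept a ratio above 2 in suffix 1 (2.52), suffix 2 (2.56) and suffixes 3 to 6 (2.06).

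**Figure D3:**
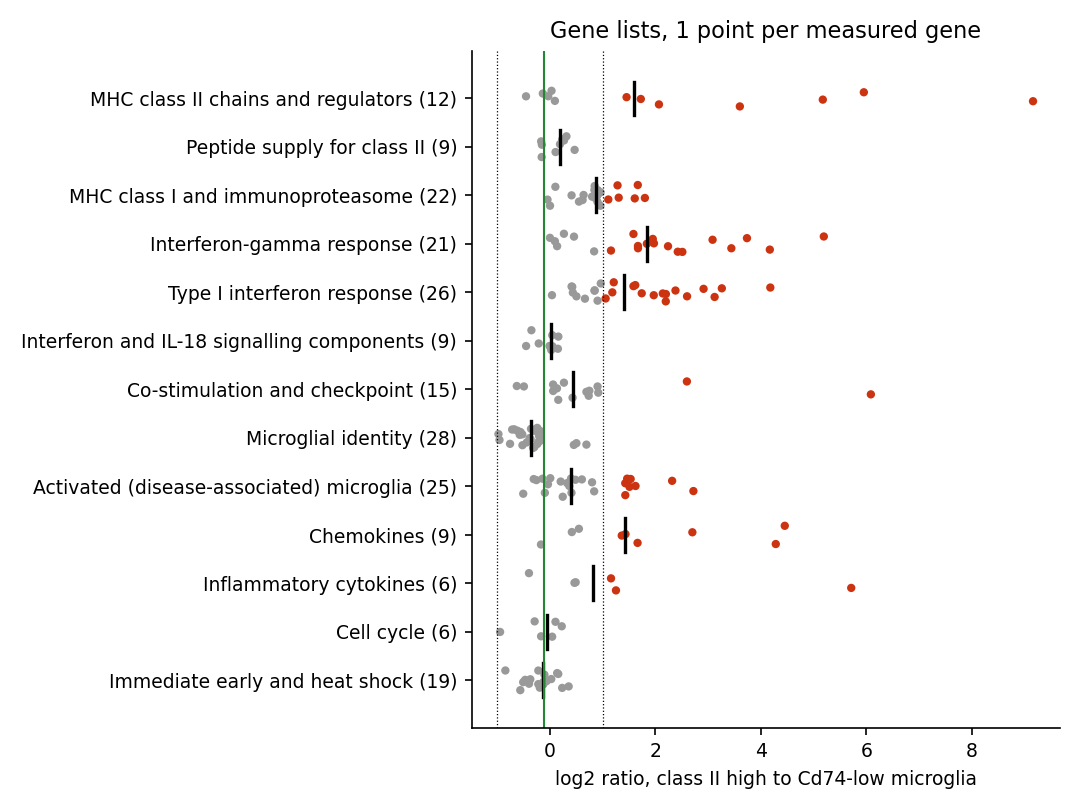
The log2 ratio of class II high to Cd74-low microglia (horizontal axis) for each measured gene of 13 lists, with the number of genes in brackets; black bars are list medians, dotted lines mark 2-fold and the green line the median of all genes, -0.11. The interferon-gamma, class II, chemokine and type I interferon lists have medians from 1.40 to 1.84, and the microglial identity list lies left of the green line at -0.36.

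Interferon-gamma response genes had a median log2 ratio of 1.84, the highest of the 13 pathway and microglial lists, with 15 of 21 measured genes higher and none lower (16 of 22 without shared barcodes). Some of them, such as Gbp2 and Gbp2b, reached the limit of 20 CPM in the class II high cells only, and these could not be called lower. By set, 16 genes were higher in suffix 1, 14 in suffix 2 and 6 in suffixes 3 to 6, and the summed list had ratios of 1.67, 1.51 and 1.25 and of 1.59 over all cells. The guanylate-binding proteins, GTPases that act on intracellular pathogens, were led by Gbp2b (85.4 CPM against 6.41, ratio 13.3) and Gbp2 (71.4 against 6.58, ratio 10.9), close copies whose reads may be split. In suffix 1, suffix 2 and suffixes 3 to 6 the ratio of Gbp2b was 14.1, 20.8 and 4.13 and that of Gbp2 12.4, 6.96 (6 UMIs) and 2.88 (3 UMIs, interval 0.594 to 8.42). Igtp and Irgm1, related GTPases, each had a ratio of 3.18. Irf1, a transcription factor of the interferon response, was at 388 CPM against 108 (ratio 3.58), and Cxcl10, a chemokine that draws activated lymphocytes, at 196 against 50.7 (ratio 3.87). Of other classical targets, Ido1, Nos2 and Ubd had no UMI, and Cxcl9 had 9 UMIs in 4 cells of suffixes 1 and 2, at 6.30 CPM against 0.186 expected (ratio 33.9). Ifng, the gene of interferon-gamma, was at 0 UMIs in the class II high cells, where the floor of 3 counts is 2.10 CPM and the upper Poisson limit 2.58 CPM.

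Il18bp (ENSMUSG00000070427, chr7:102014885-102018690, minus strand) encodes the secreted inhibitor of IL-18 and is a known interferon-gamma target. It had 96 UMIs in 70 of the 357 cells (19.6%, interval 15.6 to 24.1), or 67.2 CPM (54.4 to 82.1) against 3.73 expected, a ratio of 18.0 (22.8 without shared barcodes). Its level was 73.7, 60.9, 59.3, 35.1, 17.2 and 45.1 CPM in suffixes 1 to 6, on 77, 12, 2, 1, 1 and 3 UMIs. Cd74-low microglia of the 6 suffixes ranged from 2.06 to 5.79 CPM, below the intervals of suffix 1 (58.2 to 92.1) and suffix 2 (31.5 to 106). In suffixes 3 to 6 each value rests on at most 3 UMIs, where a single UMI is worth more than the reference level, and nothing is read from them. Il18bp was at 14.9 CPM in 619 Cd74-low microglia with at least 3 UMIs on Ifit1, Ifit2, Ifit3, Isg15, Rsad2 and Usp18, a group defined after the data had been seen, and at 3.39 CPM in the 190 class II high cells outside the microglial limit, on 3 UMIs in 3 cells. None of the 126 NK cells had a UMI, where 3 counts, the floor used for a count of 0, would be 2.38% of cells with a UMI. Il18 itself was at 38.5 CPM against 37.4. The cells thus differed in the level of the inhibitor and hardly in that of the cytokine.

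Type I interferon response genes were also higher. Of 26 measured genes, 16 were higher and none lower, with a median log2 ratio of 1.40 (18 of 27 and 1.69 without shared barcodes). Zbp1, a sensor of left-handed nucleic acids, was at 56.7 CPM against 5.92 (ratio 9.58), and Ifi204, a DNA sensor of the same response, at 53.2 against 6.11 (ratio 8.72). Ifitm3, which blocks viral entry, was at 217 CPM against 47.3 (ratio 4.59), and Isg15, a ubiquitin-like modifier, at 174 against 33.5 (ratio 5.21). The Ifit genes and Rsad2 came from few cells: 71.9% of the 57 Ifit3 UMIs were in 10 cells, and all 64 Rsad2 UMIs were in 5. The whole list summed to 1798 CPM in class II high cells, 668 expected from Cd74-low microglia and 7969 in the 619 Cd74-low microglia with interferon genes, while Gbp2 was at 58.1 CPM in the latter, close to the 71.4 of the class II high cells. Genes that this choice did not use differed in both directions. Zbp1 was at 144 CPM in the 619 cells against 56.7, Ifi204 at 183 against 53.2 and Ifi44l at 217 against 44.1. Il18bp was at 14.9 against 67.2. The 619 cells were picked on interferon genes, so genes that vary with these had to follow. These levels were not weighted by suffix, and suffix 1 gave 12.3% of the 619 cells against 68.6% of the class II high cells. The Cd74-low level of Ifi204 itself ranged from 2.90 CPM in suffix 3 to 19.6 CPM in suffix 5. The part of the library in these differences was not tested.

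Receptors and signal carriers of these pathways did not follow their targets. Of 9 measured components, none passed 2-fold, with a median log2 ratio of 0.02. Ifngr1 was at 429 CPM against 548 (ratio 0.784), Ifngr2 at 188 against 181, Jak1 at 81.2 against 111 and Ifnar2 at 220 against 221. Ifnb1, which encodes interferon-beta, had 23 UMIs in 13 cells.

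Co-stimulatory genes, whose products T cells need beside the class II signal, were mostly near the reference. Only 2 of 15 measured genes were higher. Cd86 stood at 267 CPM against 240 (ratio 1.12), Cd80 at 11.2 against 12.6 and Cd83 at 129 against 124. Cd40 reached 23.8 CPM against 0.078 through 34 UMIs in just 5 cells. Cd72, an inhibitory lectin known from B cells, was the other gene past the limit, at 246 CPM against 40.7 (ratio 6.05), with a UMI in 136 cells and ratios of 7.02, 7.32 and 3.76 in suffix 1, suffix 2 and suffixes 3 to 6. The Cd74-low reference of Cd72 itself ranged from 24.1 CPM in suffix 3 to 153 CPM in suffix 4. Of the inhibitory receptors, Lag3, which binds class II, was at 689 CPM against 427 (ratio 1.62), and Vsir was at 772 against 1194 (ratio 0.647).

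Chemokine genes were higher in 6 of 9 cases, with a median log2 ratio of 1.43. Ccl2 was at 1736 CPM against 549 (ratio 3.16) and Ccl12 at 7984 against 2957 (ratio 2.70), both ligands of the monocyte receptor CCR2, while Ccl3 (ratio 1.33) and Ccl4 (ratio 1.46) did not pass 2-fold. In suffix 1, suffix 2 and suffixes 3 to 6 the ratio of Ccl2 was 3.75, 2.85 and 1.51 and that of Ccl12 3.01, 2.34 and 1.39, and with suffix 1 left out both were below 2-fold (log2 ratios of 0.98 and 0.89). The largest ratios rested on few cells. For Cxcl13, a B cell attractant, the ratio was 19.5 and 82.7% of 104 UMIs lay in 10 cells. Suffix 1 gave 95 of these UMIs, and the ratio was 33.2 there, 9.74 in suffix 2 and 2.76 in suffixes 3 to 6. The ratio of Ccl8 was 21.9 with all 73 UMIs in 9 cells, and that of Ccl7 was 6.50 with 72.8% of 375 UMIs in 10 cells. For Ccl5, a target of several inflammatory signals, the ratio was 8.48 with 83.3% of 257 UMIs in 10 cells, and suffix 6 alone gave 130 of these UMIs. The inflammatory cytokines Tnf (680 CPM against 285, ratio 2.38) and Il1b (242 against 109, ratio 2.23) were higher, Il1a (ratio 1.40) was not past the limit, and Il1rn had a ratio of 52.5 from 46 UMIs in 7 cells. Neither call held against a reference matched on UMI total (log2 ratios of 0.89 for both) or with suffix 1 left out, where the log2 ratio of Tnf was 0.18 and that of Il1b 0.73. Tnf was higher in suffix 1 (ratio 2.78) and near the reference in suffix 2 (1.203) and suffixes 3 to 6 (1.07).

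Genes of microglial identity were slightly lower as a group. None of 28 measured genes passed 2-fold, 25 had a ratio below 1, and the median log2 ratio was -0.36 against -0.11 for all genes (-0.40 without shared barcodes, with 1 gene, Slc2a5, then past 2-fold lower). Gpr34, a lysophosphatidylserine receptor, was at 975 CPM against 1648 (ratio 0.592), Selplg at 2075 against 3088 (ratio 0.672), Siglech at 565 against 811 (ratio 0.696) and Sall1, a transcription factor of microglia, at 54.6 against 71.4 (ratio 0.765). Csf1r, the growth factor receptor, was at 0.866 and Cx3cr1 at 0.874 times the reference. The genes used by the rule were lower for P2ry12 (2633 CPM against 4143), Tmem119 (2083 against 2679) and Cst3 (53088 against 68550) and higher for C1qa (11405 against 9952), C1qb (7556 against 6040) and C1qc (6264 against 4995).

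Activated or disease-associated microglial genes were in part higher. Of 25 measured genes, 8 were higher and none lower, with a median log2 ratio of 0.41. Apoe, the lipid carrier, was at 35612 CPM against 13231 (ratio 2.69), Axl, a receptor for apoptotic cells, at 145 against 47.1 (ratio 3.08) and Cst7, an inhibitor of lysosomal proteases, at 73.5 against 25.4 (ratio 2.89). Trem2 (ratio 0.907), Tyrobp (0.974) and Cd9 (0.704) were not. Spp1, which encodes osteopontin, was at 188 CPM in the class II high cells of suffix 1 against 192 expected (ratio 0.980), at 2539 against 212 in suffix 2 (ratio 12.0) and at 4548 against 366 in suffixes 3 to 6 (ratio 12.4). Lyz2, a lysozyme of macrophages, had ratios of 1.46, 4.76 and 6.78 in the same order. These values depended on the shared barcodes: without them the Spp1 ratio was 4.66 in suffix 1 (62 UMIs), 33.7 in suffix 2 and 22.5 in suffixes 3 to 6, and 19.5 over all in place of 4.98, and the Apoe ratio was 3.72, 4.64 and 4.39 in place of 2.07, 4.14 and 4.46. Of all Spp1 UMIs, 60.2% lay in 10 cells. Summed monocyte markers had ratios of 1.28, 3.29 and 4.10 and border macrophage markers of 0.850, 1.26 and 1.52 in suffix 1, suffix 2 and suffixes 3 to 6, the same order as the activated genes, and their part in these values was not tested.

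Several interferon genes had lower ratios in suffixes 3 to 6 than in suffixes 1 and 2, where the reference also differed. The type I list summed to 1847, 1793 and 1530 CPM in the class II high cells of suffix 1, suffix 2 and suffixes 3 to 6, and to 621, 572 and 1029 CPM in the Cd74-low reference, so the levels differed less than the ratios. Irf1 had a ratio of 3.71 in suffix 1 and 4.31 in suffix 2 but 1.06 (0.530 to 1.90) in suffixes 3 to 6, with 11 UMIs, and its Cd74-low reference was 128 CPM in suffix 1 against 42.7 to 70.5 CPM elsewhere. Isg15 had ratios of 6.67, 3.84 and 0.928. Summed over the type I interferon list, the ratio was 2.97 in suffix 1, 3.14 in suffix 2 and 1.49 in suffixes 3 to 6 (3.52, 3.80 and 1.70 without shared barcodes), while for the class II list it was 9.47, 10.7 and 7.39, and for the activated list 1.54, 2.77 and 3.22 (2.05, 2.46 and 2.89). P2ry12 was at 0.683, 0.520 and 0.452 times the reference. The 52 cells of suffix 2 and the 60 cells of suffixes 3 to 6 are few, with 1 UMI worth 5.08 and 5.35 CPM against 0.958 in suffix 1. Since the IL-33 and pcDNA groups had 3 mice each, the pooled suffixes 3 to 6 hold libraries of both groups. Of the 112 higher genes, 101 had a ratio above 1 in both suffix 1 and suffix 2, 89 in these and in suffixes 3 to 6, and 38 were past 2-fold in all 3 sets.

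**Figure D4:**
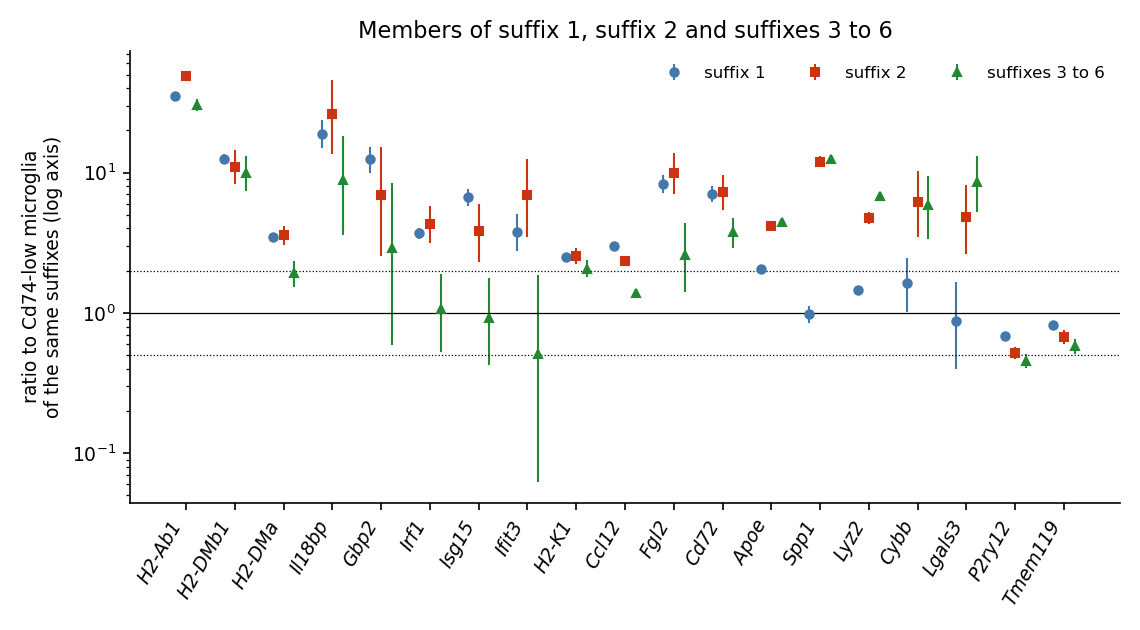
Ratio of the level in class II high cells to that of Cd74-low microglia of the same suffixes (vertical log axis; solid line 1, dotted lines 2 and 0.5) for 19 genes and 3 sets of cells, with 95% Poisson intervals and shared barcodes included. H2-Ab1 and H2-DMb1 are high in all 3 sets, Irf1 and Isg15 are near 1 in suffixes 3 to 6, and Spp1 is near 1 in suffix 1 and near 12 in the others.

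At 20 CPM lower genes were fewer than higher ones, an order that turned with cells thinned to 1000 UMIs (272 lower, 208 higher), without suffix 1 (295 and 203) and with no CPM limit (580 and 487), and several values rested on the shared barcodes. S100a8 and S100a9, which mark granulocytes, had 4 and 3 UMIs (2.80 CPM against 72.2 and 2.10 against 54.2). Of the 35724 Cd74-low microglia, 610 had a UMI of a granulocyte marker and 65 had at least 3. With 8 further marker genes at 0 UMIs in both sets of cells, S100a9 among them, the log2 ratio of S100a8 was 0.10. Ddit4, a stress-induced inhibitor of mTOR signaling, was at 18.2 CPM against 103 (ratio 0.176) and Tsc22d3, a glucocorticoid target, at 121 against 312 (ratio 0.388). Their ratios were 0.070 and 0.315 in suffix 1, against 0.740 and 0.655 in suffixes 3 to 6. Without shared barcodes Ddit4 was at 2.38 CPM on 3 UMIs against 5.399 expected (ratio 0.442, and 0.425 in suffix 1), so nearly all of its expected level came from cells with a shared barcode, and Tsc22d3 was at 89.0 against 181 (ratio 0.492). Sult1a1 (0.363), Sox4 (0.434), Gpr183, an oxysterol receptor (0.443), Alox5, the 5-lipoxygenase (0.451), and Abca9 (0.468) were the remaining leading genes, together with Pik3ip1 (0.422). Without shared barcodes Pik3ip1 had a ratio of 1.03 and Sult1a1 of 0.580 (23.04 CPM against 39.7), neither past 2-fold, while Sox4 (0.354), Gpr183 (0.460), Alox5 (0.453) and Abca9 (0.466) remained past it. Against the reference matched on UMI total, Ddit4 (log2 ratio -0.89), Tsc22d3 (-0.70), Sult1a1 (-0.60), Pik3ip1 (-0.04) and Abca9 (-0.96) were not past 2-fold, and Alox5 (-0.91) was not when separate UMIs chose the cells and gave the values. None of 6 measured cell cycle genes and none of 19 immediate early and heat shock genes passed 2-fold, with median log2 ratios of -0.06 and -0.13 (without shared barcodes 1 cell cycle gene was past 2-fold lower). Fos was at 8749 CPM against 12117 (ratio 0.722).

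Outside the lists, 46 further genes were at least 2-fold higher. C4b, a complement component whose gene lies in the MHC region, was at 95.2 CPM against 10.5 (ratio 9.05; log2 ratio 3.18, and 2.32 against a reference matched on UMI total), and Fgl2, a secreted immune regulator of macrophages, at 158 against 21.1 (ratio 7.49), in 125 cells. Ly6a had a ratio of 32.2 from 44 UMIs, and Apoc1, a lipoprotein gene beside Apoe, a ratio of 4.28. Tspo, the mitochondrial protein used to image activated microglia, was at 300 CPM against 106 (ratio 2.82), Hcar2, the niacin receptor, at 209 against 67.7 (ratio 3.09), and Fcgr2b, the inhibitory Fc receptor, at 472 against 220 (ratio 2.15). Saa3 had a ratio of 21.3 but 99.2% of its 119 UMIs lay in 10 cells and its ratio in suffix 1 was 0.816.

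Class II genes varied by degree with Cd74, and interferon and class I genes did so less regularly. In microglial cells without Ccr2 and Cd209a, H2-Ab1 was at 61.4 CPM with 0 UMIs of Cd74, 77.7 with 1, 149 with 2 to 4, 517 with 5 to 9, 979 with 10 to 19, 1961 with 20 to 39 and 4360 with 40 or more. Il18bp went from 3.5 to 97.6 CPM and H2-DMa from 249 to 1333 over the same bins. Isg15 was at 169 CPM with 5 to 9 UMIs of Cd74, 107 with 10 to 19 and 210 in the top bin, and H2-K1 at 1091, 995 and 1691. P2ry12 went from 3823 CPM at 0 UMIs to 2546 at 5 to 9 and lay between 2505 and 2810 above that. Tmem119 was between 1972 and 2131 CPM in every bin from 2 UMIs on. Spp1 was highest at 10 to 19 UMIs of Cd74 (1680 CPM) and was at 372 CPM in the top bin. The bins differed in library, since suffix 1 gave 18.7% of the cells with no Cd74 and 86.5% of the 104 cells with 40 UMIs or more, and in depth, with medians from 2270 to 4341 UMIs. At the limit, the 49 cells with 8 or 9 UMIs that met every other condition had 922 CPM of H2-Ab1, 262 of H2-Eb1 and 20.7 of Il18bp, and the 43 class II high cells with 10 or 11 had 978, 469 and 23.9. The 44 cells with at least 10 UMIs of Cd74 but none of H2-Aa had 673 CPM of H2-Ab1. The 9 cells just outside the microglial limit, with a share of 2 to 3%, had 161 CPM of P2ry12 and 64939 of Apoe. The 23 class II high cells nearest the microglial limit, with a share of 3 to 4%, had 711 CPM of P2ry12 and 94081 of Apoe, against 2633 and 35612 in all 357.

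**Figure D5:**
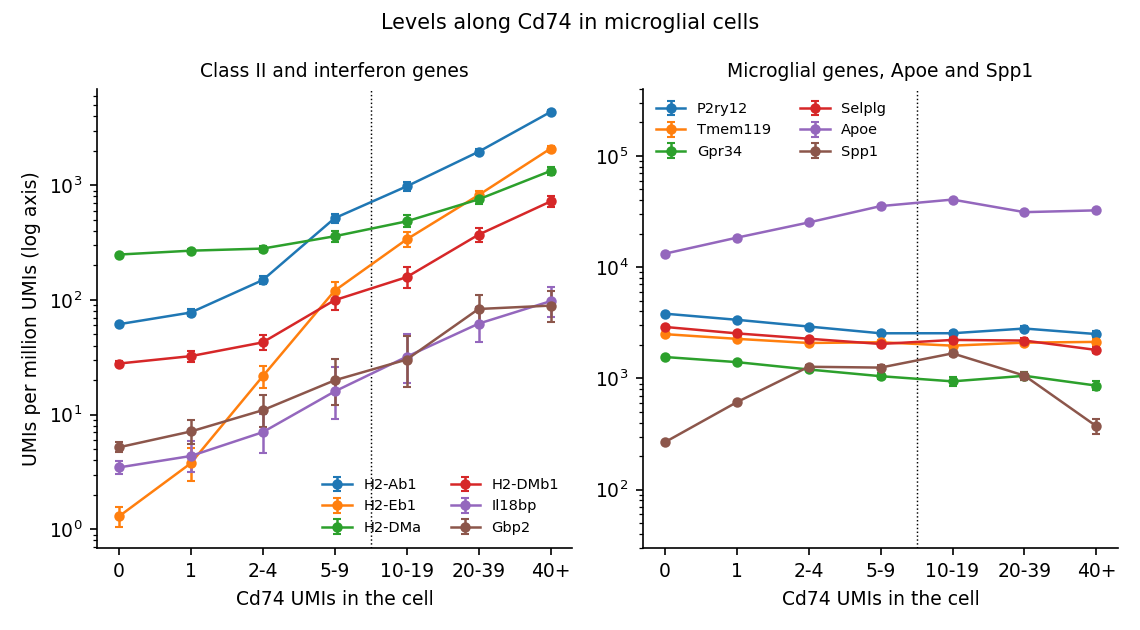
Level in CPM (vertical log axis) of class II and interferon genes (left) and of microglial genes, Apoe and Spp1 (right) in microglial cells grouped by Cd74 UMIs (horizontal axis), with 95% Poisson intervals; the dotted line is the limit of 10. The left-hand genes (H2-Ab1, H2-Eb1, H2-DMa, H2-DMb1, Il18bp and Gbp2) are higher in each bin from 2 UMIs on, whereas P2ry12 and Tmem119 change little above 5 UMIs and Spp1 peaks at 1680 CPM.

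The promoters of the interferon genes are shown for their own motif. The interferon-stimulated response element, searched on both strands as GAAANNGAA or its reverse complement TTCNNTTTC, was found in 7.13% of all 32851 promoters. It was present for 26 of the 84 higher genes with a promoter entry (31.0%) and for 351 of the 4376 measured genes with one (8.02%). The gamma-activated site, searched as TTCNNNGAA, was found in 7.02% of all promoters, for 8 of the 84 higher genes (9.52%) and for 7.15% of the measured genes, so its share was near the background. Windows of 60 bases on the gene's strand, 5′ to 3′, with the motif in capitals, are given for Gbp2 (chr3:142620580-142620639, plus strand) and Gbp2b (chr3:142594686-142594745, plus strand).
Gbp2: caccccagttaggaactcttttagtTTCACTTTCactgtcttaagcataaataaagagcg
Gbp2b: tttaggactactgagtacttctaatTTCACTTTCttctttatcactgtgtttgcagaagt
The capitals of Gbp2 and Gbp2b are the reverse complement of the element. These are matches of letters in a window and say nothing of which factor was bound in these cells.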

How the data were processed

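CD45+ cells of 3 pcDNA and 3 IL-33 xenograft hemispheres were captured on the 10x Chromium platform (3′ v2). The authors aligned reads to mm10 with Cell Ranger (3.1.0 in the file header), combined the libraries and deposited 1 matrix of UMI counts, which Seurat 3.1.5 handled in their study. The libraries were sequenced in 3 batches that GEO's labels tie to no suffix. From the deposited counts, cells were kept within the authors' limits, and members and Cd74-low microglia were set by the rule in the report. Doublets were limited only by the 2500-gene ceiling, and no caller was run. UMIs were summed per set and given as CPM. Expected UMIs were weighted by suffix. Intervals are exact Poisson or Clopper-Pearson at 95%. Named genes were the 15 highest and 10 lowest ratios at 50 CPM or more with the same direction in each suffix of at least 20 members, plus leading genes of the lists. The members, the gene lists and the motifs were chosen with earlier results of these data known. The group of Cd74-low microglia with interferon genes, the spacing of the promoter motifs and the removal of shared barcodes were chosen after seeing the data. The calculation was tested on simulated data. Groups were taken from GEO's labels alone, which name no suffix. A library summary in the study lists cell counts by group that match the suffix totals, but suffixes were not assigned by matching values, so no test was made. A count of 0 was given a floor of 3 counts. Lists named in the report hold genes that some microglia also express. H2-Ea-ps, Ifi30, H2-L, H2-Q5, Mx2, Clec7a and Cxcl11 were not analysed here. Python 3.11.15, numpy 2.4.6, scipy 1.17.1 and pandas 2.3.3 were used. 1 gene that met the rule for named genes is not reported here.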

Additional observations from a re-analysis of the deposited data

Results flagged for a closer look

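Suffix 1 stood apart from the other 5 suffixes in the share of class II high cells. The share was 3.24% of its microglial cells against 0.229% to 0.525% elsewhere, and 5.43% against 0.125% to 0.520% without shared barcodes, and in both cases the gap to the next suffix took up most of the range of the 6 values. The same scan over the Cd74-low microglia of 25 named genes marked none of their levels. Chance marks about 1 in 20 such groups when the 6 values are independent, which these libraries were not. The shares with and without shared barcodes also rest on overlapping cells. The 6 suffixes were not assigned to groups here and are not taken as replicates, and what sets suffix 1 apart was not tested.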

How the results depend on the processing

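Of 34 named genes past 2-fold, 20 stayed past it under every one of 20 alternatives, and 677 of 680 values kept their direction. The exceptions were S100a8 (log2 ratio 0.10) and S100a9 (0) when 8 further marker genes had to be at 0 UMIs and Pik3ip1 (0.036) without shared barcodes, an alternative chosen after seeing the data. S100a9 was itself 1 of the 8 marker genes, so its value of 0 was fixed by that choice. Cd74 limits of 5 and 20 UMIs gave shares of 1.30% and 0.625% of microglial cells, the latter 235 cells, and unshared barcodes alone 1.23%. Leaving out 1 suffix gave 112 to 348 cells, or 0.372% to 1.10%, with 116 to 203 genes higher and 50 to 295 lower, the largest counts without suffix 1. Genes higher and lower numbered 208 and 272 with cells thinned to 1000 UMIs, 70 and 14 at 50 CPM or more, and 487 and 580 with no CPM limit but at least 3 UMIs, where 24 interferon-gamma response genes were higher. Genes lower numbered 28 at a Cd74 limit of 5 UMIs, 96 at 20 UMIs, 28 without the upper limit on genes and 117 when a random 50% of UMIs chose the cells and the rest gave the values. In that split, where the values share no UMI with the choice but come from the same cells, H2-Ab1 had a log2 ratio of 5.15, H2-Eb1 of 8.80 and Il18bp of 3.97. Against depth-matched microglia, Ddit4 was at -0.89, Tsc22d3 at -0.70, Pik3ip1 at -0.04 and Tnf and Il1b at 0.89. The causes were not tested. Suffixes 2 to 6 hold few of these cells, which limits the precision for genes of low level. No paired analysis was possible because groups were taken from GEO's labels alone, which give the suffixes no sample or replicate number.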
